A study of Mus musculus with 26 samples.

Results

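The extracellular matrix and stroma genes described here are 44 genes, chosen by name, of 23168 gene symbols measured. All 44 were found in every library. They fall into 8 roles: fibrillar collagens (5 genes), basement membrane (5), collagen VI (3), matrix glycoproteins (7), small leucine-rich proteoglycans (3), matrix folding, crosslinking and turnover (8), contractile and caveolar genes (5), and stromal signals, receptors and adhesion (8).

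Fibroblasts and related stromal cells build the extracellular matrix. They secrete collagens, fibronectin and proteoglycans, fold and crosslink them with dedicated chaperones and oxidases, and release signals such as Cxcl12 and stem cell factor to the blood cells nearby. Thymocytes are not a main source of these products, and OP9, a mouse bone marrow stromal line used to grow lymphocytes, is a cell of the matrix-building kind. OP9 cells come from mice without functional macrophage colony-stimulating factor, and the OP9/Dll-1 variant carries an added gene for the Notch ligand Delta-like 1.

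RNA was sequenced from 26 libraries of thymocytes of C57BL/6 mice aged 6 to 8 weeks. DN1eP (4 libraries) are early thymocytes sorted without the Valpha14Jalpha18 T cell receptor at the surface. DN1eP-NKT (4) are cells positive for that receptor, obtained by growing DN1eP for 10 days on OP9/Dll-1 cells with mouse IL-2 at 5 ng/ml and IL-7 at 5 ng/ml, then sorted. Thymic natural killer T (NKT) cells came straight from the thymus, as NKT-1 (stage 1, CD44- NK1.1-, 5 libraries), NKT-2 (stage 2, CD44+ NK1.1-, 7) and NKT-3 (stage 3, CD44+ NK1.1+, 6). DN1eP-NKT is thus the only group that grew on the OP9/Dll-1 layer, so culture and contact with that layer cannot be told apart, and a library of OP9 cells alone was not analysed here. The labels do not say whether libraries of a group come from separate mice, so p-values measure the spread between these libraries only.

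Values are FPKM, fragment counts scaled by transcript length and library total. The libraries form sets A and B of 13 each, told apart by a library's median over its expressed genes, those reaching 1 FPKM (12.96 to 13.91 and 7.59 to 9.80). Set A holds DN1eP-NKT, NKT-1 libraries 1 and 2, NKT-2 libraries 1 to 4 and NKT-3 libraries 1 to 3, and set B holds DN1eP and the other 9 thymic libraries. The labels name a pair of library kits without saying which library had which. DN1eP-NKT was therefore compared first with the 9 thymic libraries of set A. Depth, estimated from the steps between low FPKM values, was about 14800000 fragments in DN1eP-NKT library 1 and 2480000, 1120000 and 1190000 in libraries 2, 3 and 4. All 14 T cell genes checked were expressed in DN1eP-NKT, with Cd3e at 255 to 314 FPKM.

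Promoters of 4 members that were high in DN1eP-NKT are shown so that their motifs can be compared. Capitals mark a GC box (GGGCGG, or CCGCCC on the other strand), a CCAAT box or, in Myl9, a CArG box. The windows are chr6:4505408-4505527 (+) for Col1a2, which encodes a chain of collagen I, chr6:117168415-117168514 (+) for the chemokine gene Cxcl12, chr7:99353240-99353339 (-) for the collagen chaperone gene Serpinh1, and chr2:156775284-156775383 (+) for the myosin light chain gene Myl9. Sequences are from RefSeq on GRCm38.p6, 5′ to 3′ on the strand of the gene.
Col1a2: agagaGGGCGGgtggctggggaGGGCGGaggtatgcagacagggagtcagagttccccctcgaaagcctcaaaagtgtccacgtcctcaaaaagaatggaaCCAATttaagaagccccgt
Cxcl12: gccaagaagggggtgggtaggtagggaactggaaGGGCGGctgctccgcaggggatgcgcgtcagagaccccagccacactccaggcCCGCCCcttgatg
Serpinh1: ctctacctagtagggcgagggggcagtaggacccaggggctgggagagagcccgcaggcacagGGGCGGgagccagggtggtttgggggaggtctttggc
Myl9: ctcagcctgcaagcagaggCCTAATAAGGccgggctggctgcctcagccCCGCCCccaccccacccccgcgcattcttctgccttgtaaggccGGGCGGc

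In Col1a2 the GC boxes begin 205 and 188 bases before the transcription start and the CCAAT box 109 bases before it. In Cxcl12 the GC boxes begin 86 and 33 bases before the start, and in Serpinh1 at 37. In Myl9 the CArG box, the element bound by serum response factor in many contractile genes, begins 161 bases before the start. RefSeq promoters were matched for 31 of the 44 members (35 promoters, each from 250 bases before to 50 after the start), and both strands were searched. A GC box was found in 24 of the 35 (68.6%) against 35.7% of all 32851 promoters, a CCAAT box in 10 (28.6%) against 37.4%, and a CArG box in 1 (2.86%) against 1.63%. These matches describe letters only, and both the motifs and the 4 promoters were chosen with the expression values known.

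DN1eP-NKT carried more matrix and stroma RNA than thymic NKT cells of the same library set. All 44 members summed to 167, 624, 917 and 874 FPKM in DN1eP-NKT libraries 1 to 4, against 47.9 to 139 in the 9 thymic libraries of set A, 15.1 to 40.6 in those of set B and 26.1 to 56.6 in DN1eP. Library 1 was thus little above the highest thymic library, whose sum was mostly Timp2 (104 FPKM). The 40 members other than Timp2, Csf1, Axl and Lamc1, 4 genes that thymic NKT cells express themselves, summed to 140, 584, 866 and 828 FPKM in DN1eP-NKT libraries 1 to 4. The same sum ranged from 6.78 to 14.6 FPKM over the 9 thymic libraries of set A, from 2.99 to 12.0 over those of set B and from 11.3 to 46.1 in DN1eP. This choice of 40 was made with the levels known, and it widens the gap; Acta2, Tagln and Igfbp7, also expressed in thymic libraries, are among the 40. By either sum the lowest DN1eP-NKT library was above the highest of any other group, and library 1 was well below the other 3. In a bulk sample, fewer cells of a type and less RNA per cell cannot be told apart.

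**Figure D1:**
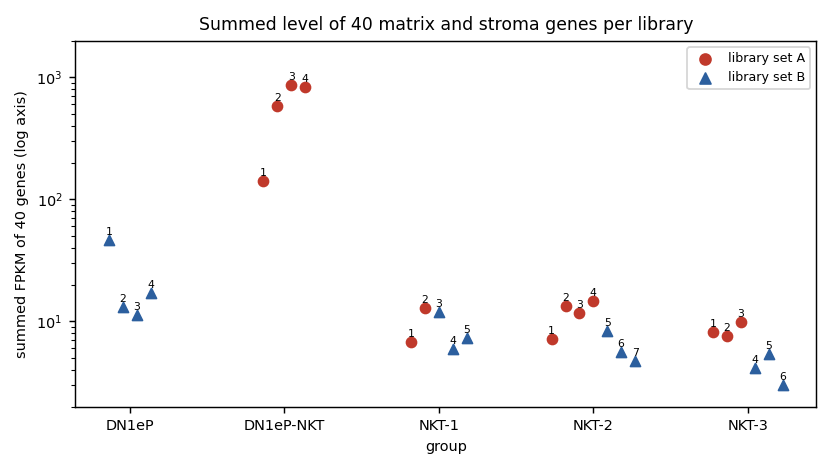
Summed FPKM (log axis) of the 40 members other than Timp2, Csf1, Axl and Lamc1 in each of 26 libraries by group, with the library number above each point; circles are set A and triangles set B. DN1eP-NKT libraries lie at 140 to 866 FPKM and every other library at 46.1 or below; with the 4 omitted genes, library 1 of DN1eP-NKT is at 167 and the thymic libraries of set A reach 139.

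In the limma test of log2(FPKM + 1), 27 of the 30 members tested were higher in DN1eP-NKT than in thymic NKT cells of set A and 1, Timp2, was lower. Over all 11663 tested genes 22.6% were called, 13.5% higher and 9.11% lower. Of the 8 members that passed the filter on low values without DN1eP-NKT, 5 were higher and 1, Timp2, was lower. The other 22 of these 30 passed it only through DN1eP-NKT and had to differ, so every member was also fitted without the filter. There 39 of 44 were higher and 1 lower, against 11.7% and 6.03% (17.7% in all) of 18702 genes. The median difference over the 44 was 2.19 log2 units, against 0 over all genes of that fit. Axl, Csf1, Dcn and Lum were not called. In the thymic libraries of set A, 13 members are listed at 0 throughout, among them Col3a1, Postn, Myl9, Kitl, Gas6 and Pdgfra, so their log2 differences depend on the pseudocount of 1 FPKM and give no fold.

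Each culture library showed the excess by itself. Library 1 was above all 9 thymic libraries of set A for 34 of 44 members, and libraries 2, 3 and 4 for 40, 39 and 40. Over all tested genes the shares were 15.5%, 15.9%, 19.7% and 19.2%. All 4 libraries were above for 34 members, against 6.46% of tested genes. The 10 exceptions were Col5a1, Igfbp7, Lum, Dcn, Mmp14, Timp2, Timp3, Acta2, Csf1 and Axl.

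**Figure D2:**
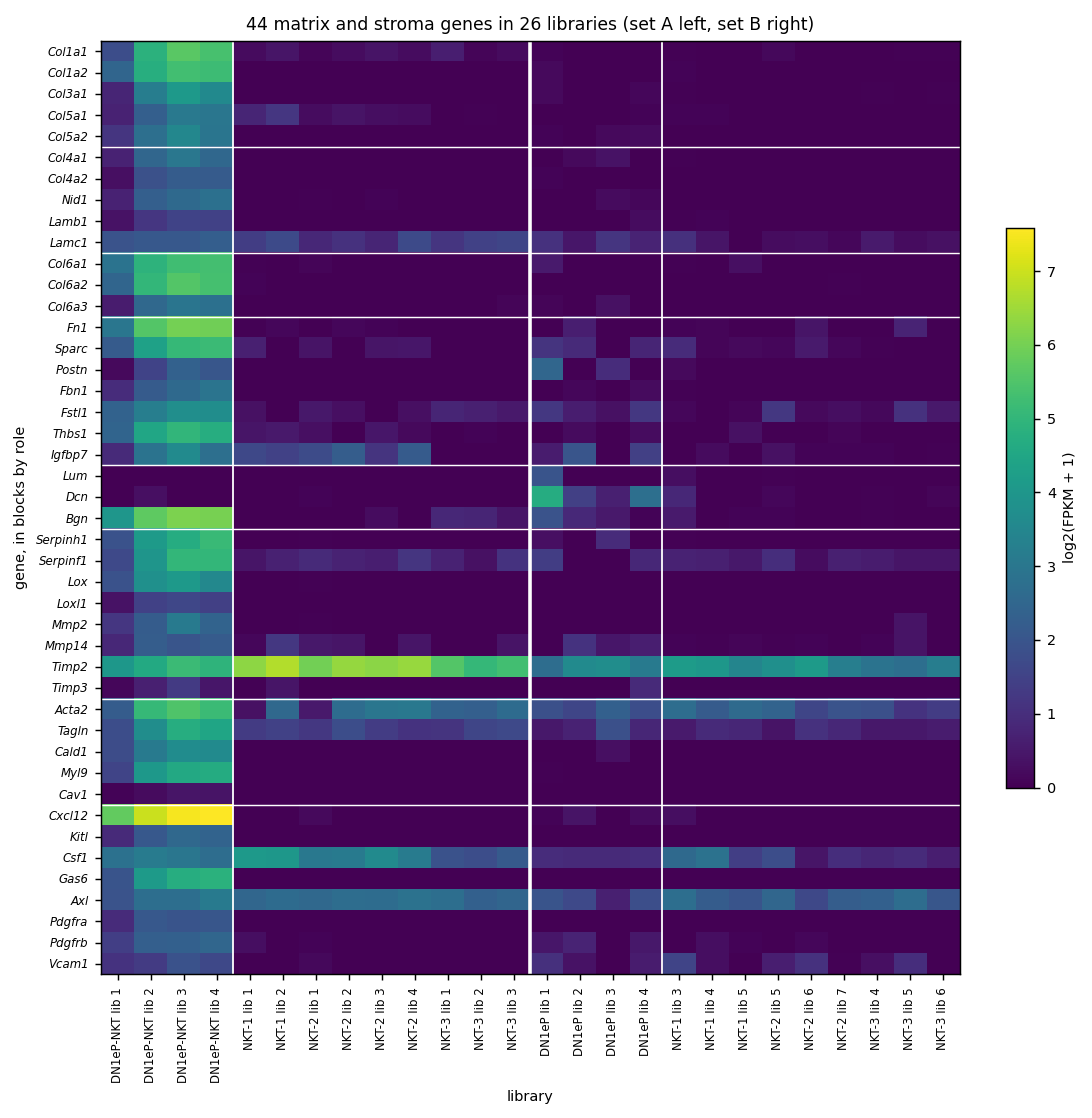
Level of the 44 members (rows, in blocks by role) in 26 libraries (columns, set A left of the thick line and set B right of it) as log2(FPKM + 1). Most rows are bright only in the first 4 columns, DN1eP-NKT, and paler in library 1; Timp2, Csf1 and Axl are expressed across the thymic libraries.

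Fibrillar collagens, the rope-forming collagens of types I, III and V, were higher in DN1eP-NKT for all 5 genes without the filter, by 1.84 (Col5a1) to 4.44 (Col1a2) log2 units. Col1a1, the alpha 1 chain of collagen I (mm9 chr11:94797584-94813170), was at 2.43, 28.6, 49.0 and 40.8 FPKM in DN1eP-NKT libraries 1 to 4. Its thymic libraries of set A held 0.0659 to 0.557 FPKM, below all 4. Its log2 difference was 4.12 ± 0.41 (SE, limma adjusted p = 2.95e-08). The deposited intervals for Col1a1 were 2.04 to 2.82 FPKM in library 1 and 25.1 to 32.2 in library 2, so these libraries differed by more than their own counting error. Col1a2, which pairs with Col1a1 in the collagen I triple helix, was at 4.57, 26.3, 38.5 and 35.7 FPKM in the same order.

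Basement membrane genes, which encode the sheet-forming collagen IV, nidogen and laminin, were lower in level. Col4a1 had the highest mean of them, at 0.641, 4.63, 7.07 and 4.74 FPKM in libraries 1 to 4 and is listed at 0 in all 9 thymic libraries of set A. Without the filter all 5 were higher, from 0.75 (Lamc1) to 2.19 (Col4a1) log2 units. Lamc1, the laminin gamma 1 chain, stood apart because thymic NKT cells express it as well. It was at 2.88, 3.26, 3.27 and 3.79 FPKM in DN1eP-NKT and at 0.732 to 2.28 in the thymic libraries of set A, with no drop in library 1. Its difference of 0.75 ± 0.20 (limma adjusted p = 0.00812) missed the threshold against stage 1 alone (0.56, limma adjusted p = 0.246) and stage 3 alone (0.69, limma adjusted p = 0.0509).

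Collagen VI genes, whose 3 chains form beaded microfibrils around cells, were all higher without the filter. Col6a2 (mm9 chr10:76058501-76086149) was at 4.51, 31.4, 45.9 and 39.5 FPKM in libraries 1 to 4, a log2 difference of 4.58 ± 0.33 (limma adjusted p = 4.91e-11). Col6a1 followed it closely at 6.38, 28.7, 37.1 and 39.3 FPKM, and Col6a3 stayed lower at 0.480 to 6.70 FPKM.

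All 7 matrix glycoprotein genes were higher without the filter, by 1.43 (Igfbp7) to 5.07 (Fn1) log2 units. Fn1, which encodes fibronectin (mm9 chr1:71632097-71699745), was at 6.86, 45.7, 63.6 and 60.9 FPKM in libraries 1 to 4. The thymic libraries of set A reached at most 0.104 FPKM, so the groups did not overlap (5.07 ± 0.35, limma adjusted p = 2.56e-11). Thbs1 and Sparc, genes of the matricellular proteins thrombospondin 1 and osteonectin, differed by 3.92 ± 0.28 and 3.98 ± 0.36. Igfbp7, which encodes a secreted insulin-like growth factor binding protein, was at 0.873, 6.41, 11.5 and 5.81 FPKM. Its thymic level was 1.76 to 2.11 FPKM in NKT-1 and 1.18 to 3.68 in NKT-2 of set A, while all 3 NKT-3 libraries of that set are listed at 0. Igfbp7 was called against the mean of the stages (1.43 ± 0.35, limma adjusted p = 0.00358), but not against stage 1 (1.0, limma adjusted p = 0.224) or stage 2 (0.73, limma adjusted p = 0.252) alone.

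The small leucine-rich proteoglycans split. Bgn, which encodes biglycan (mm9 chrX:70728974-70741275), was the second most abundant member in DN1eP-NKT at 14.7, 51.4, 66.7 and 64.4 FPKM. Thymic libraries of set A held 0 to 0.791 FPKM (5.19 ± 0.31, limma adjusted p = 1.36e-12). Decorin (Dcn), another collagen-binding proteoglycan, was at 0, 0.231, 0 and 0 FPKM in DN1eP-NKT, and lumican (Lum) is listed at 0 in all 4. DN1eP-NKT thus held the RNA of 1 of the 3 proteoglycan genes.

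Among folding, crosslinking and turnover genes, 7 of 8 were higher without the filter and Timp2 was lower. Serpinh1, the collagen chaperone HSP47, was at 2.78, 16.5, 25.2 and 34.2 FPKM and differed by 3.97 ± 0.34 (limma adjusted p = 1.41e-09). Lox, the lysyl oxidase that crosslinks collagen, was at 2.74, 13.0, 15.7 and 10.7 FPKM (3.33 ± 0.24). Mmp2 and Mmp14, metalloproteinases that cut matrix, differed by 2.23 ± 0.22 and 1.43 ± 0.24.

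Timp2, an inhibitor of metalloproteinases (mm9 chr11:118162375-118216725), went the other way. It was at 15.2, 23.3, 34.8 and 29.8 FPKM in DN1eP-NKT libraries 1 to 4. Thymic libraries of set A held 78.1 and 104 in NKT-1, 62.0 to 85.3 in NKT-2 and 32.1 to 46.1 in NKT-3. DN1eP-NKT lay below every NKT-1 and NKT-2 library and overlapped NKT-3. The difference was -1.34 ± 0.22 (limma adjusted p = 3.36e-05), and against stage 3 alone it was -0.62 (limma adjusted p = 0.107).

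All 5 contractile and caveolar genes were higher without the filter, from 0.28 (Cav1, caveolin 1) to 3.71 (Myl9) log2 units. Acta2, smooth muscle actin, was at 3.59, 33.0, 44.7 and 34.7 FPKM in libraries 1 to 4 (2.43 ± 0.52, limma adjusted p = 0.00133). Library 1 lay inside the thymic range of set A, which ran from 0.276 to 7.13 FPKM. In Acta2, library 1 was low in other groups of set A too, at 0.276 FPKM in NKT-1 library 1 against 4.86 in library 2, and at 0.423 in NKT-2 library 1 against 5.35 to 7.13 in libraries 2 to 4. These 3 low libraries are also the 3 deepest of set A (12200000 to 14800000 fragments against 1080000 to 2710000), and the part of depth in the Acta2 level was not tested. Myl9, the regulatory light chain of smooth muscle myosin, is listed at 0 in those thymic libraries and was at 1.96, 15.4, 23.0 and 24.2 FPKM in DN1eP-NKT.

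Stromal signals, receptors and adhesion genes were the most uneven role. Cxcl12, the chemokine that draws cells bearing CXCR4 (mm9 chr6:117118553-117131386), was the most abundant member and had the largest difference of the 44. It was at 53.5, 125, 179 and 191 FPKM in libraries 1 to 4, against 0 to 0.133 in thymic libraries of set A (6.94 ± 0.22, limma adjusted p = 1.85e-17). Gas6, the ligand of the receptor Axl, was at 2.90, 16.4, 25.4 and 28 FPKM. Kitl, which encodes stem cell factor, was at 0.854, 3.22, 4.93 and 4.35 FPKM. Pdgfra and Pdgfrb, platelet-derived growth factor receptors typical of fibroblasts, were at 0.898 to 3.23 and 1.67 to 4.67 FPKM.

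Axl and Csf1 were not called between DN1eP-NKT and thymic NKT cells of set A. Axl was at 2.87, 5.67, 5.67 and 7.48 FPKM in DN1eP-NKT and 4.03 to 6.30 in the thymic libraries (0.03 ± 0.24, limma adjusted p = 0.961). Csf1, macrophage colony-stimulating factor, was at 6.13, 7.84, 6.82 and 5.57 FPKM against 2.43 to 16.3 (-0.16 ± 0.23, limma adjusted p = 0.70). Neither p shows that the levels were equal, and the groups overlapped for both genes. Vcam1, an adhesion molecule of stromal and endothelial cells, was at 1.15, 1.49, 2.79 and 2.14 FPKM and listed at 0 in 8 of the 9 thymic libraries (1.49 ± 0.26).

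Against DN1eP, the cells the cultures were started from, 29 of 30 tested members were higher in DN1eP-NKT and 0 lower. Because these groups lie in different library sets, this difference cannot be told apart from library set, and over all tested genes 69.4% were called, 47.3% higher and 22.1% lower. Of the 8 members that passed the filter without DN1eP-NKT, 8 were higher and 0 lower. Without the filter 40 of 44 members were higher and Dcn was lower, against 33% and 17.3% (50.3% in all) of genes. Each group was therefore set against the thymic libraries of its own set, and the difference between those contrasts was tested.

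Beyond the library set difference, 24 of 30 tested members were higher in DN1eP-NKT than in DN1eP and Timp2 was lower, against 15% and 16.6% (31.6% in all) of tested genes. Of these 30, 22 passed the filter only through DN1eP-NKT. Of the 8 that passed without it, 3 (Fstl1, Acta2 and Tagln) were higher and 1, Timp2, was lower. Without the filter 35 of 44 were higher, and Timp2 (-1.13 ± 0.31) and Dcn (-2.20 ± 0.60) were lower, against 11% and 11.8% (22.9% in all) of genes. Cxcl12 (6.80 ± 0.32), Fn1 (5.07 ± 0.49), Col6a2 (4.58 ± 0.46) and Bgn (4.42 ± 0.43) kept most of their difference. These 4 members lie below 1 FPKM in every thymic library, so the set difference subtracted was small, from -0.10 (Fn1) to 0.17 (Bgn). It cannot show how library set acts on them at the levels of DN1eP-NKT. Axl, Csf1, Igfbp7, Lamc1 and Postn were the tested members without a call. No called member changed sign with scaling. With upper-quartile scaling the median over tested genes shifted by 0.13 log2 and the share of calls that were higher went from 47.4% to 57.6%, with 24 members higher and 1 lower.

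Few members were called between uncultured DN1eP and thymic NKT cells, although the 40-member sum was above every thymic library of set B in 3 of 4 DN1eP libraries. Most members are near 0 in both groups, and 22 of the 30 tested passed the filter only through DN1eP-NKT, so the count says little about them. Of 30 tested members, 2 were higher than in set B thymic cells (Bgn, 0.77 ± 0.30, limma adjusted p = 0.0481, and Igfbp7, 0.91 ± 0.35, limma adjusted p = 0.0456) and Axl was lower (-0.73 ± 0.23, limma adjusted p = 0.017). Over all tested genes 35.3% were called, 20.8% higher and 14.4% lower. Without the filter neither Bgn (limma adjusted p = 0.0744) nor Igfbp7 (limma adjusted p = 0.0754) was called, and of 44 members Dcn was higher and Axl lower, against 17.2% and 8.6% (25.8% in all) of genes. Bgn was at 2.85, 0.833, 0.447 and 0.0587 FPKM in DN1eP libraries 1 to 4 against 0 to 0.471 in thymic set B, and Igfbp7 at 0.50, 2.98, 0 and 1.68 against at most 0.277. Axl was at 2.90, 2.18, 0.598 and 2.57 FPKM against 2.15 to 5.75. The count of called members ran from 1 to 4 when single libraries were left out; it was 1 without DN1eP library 3, without DN1eP-NKT library 2, and without any of 12 thymic libraries.

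**Figure D3:**
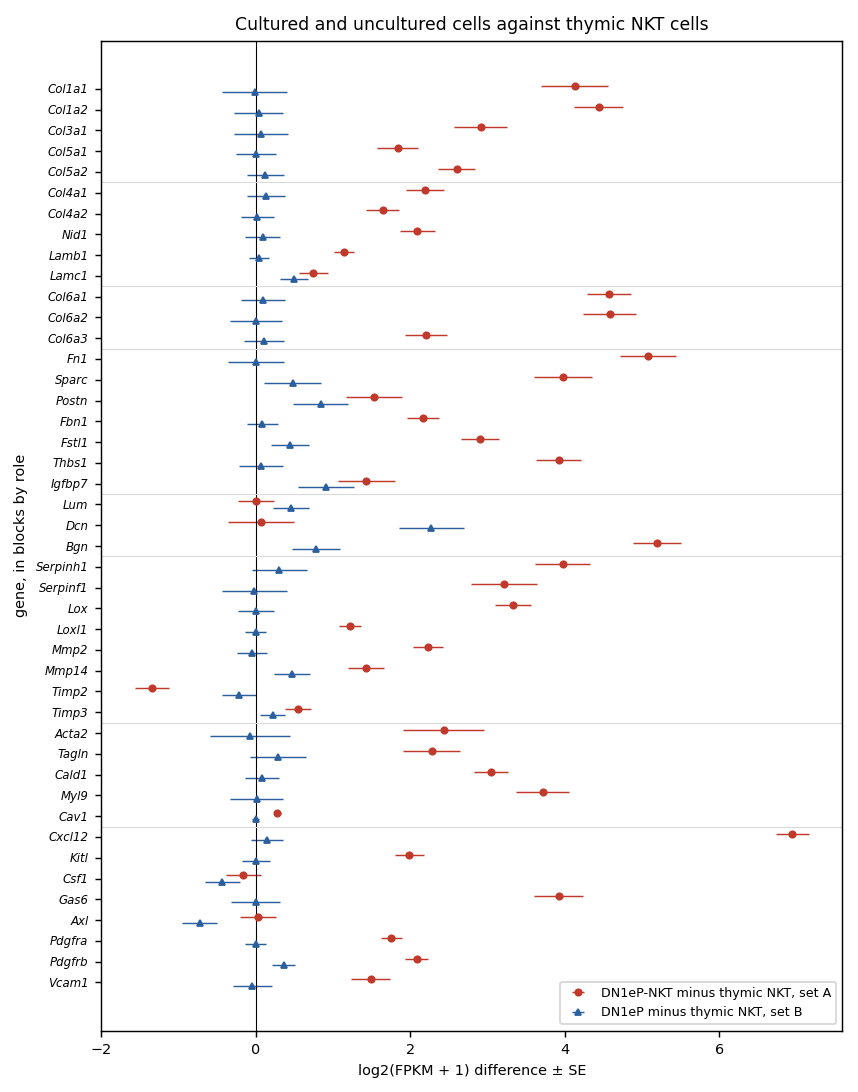
Difference in log2(FPKM + 1) with its standard error for each of the 44 members, fitted without the filter on low values: DN1eP-NKT against thymic NKT cells of set A (circles) and DN1eP against thymic NKT cells of set B (triangles). Most circles lie well to the right of 0, those of Lum, Dcn and Axl lie at or near 0 and those of Csf1 and Timp2 to its left; triangles run from -0.73 (Axl) to 0.91 (Igfbp7), apart from Dcn at 2.27.

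Dcn was higher in DN1eP and nearly absent from the culture. Dcn (mm9 chr10:96942134-96980796) was at 25.2, 1.72, 0.575 and 5.82 FPKM in DN1eP libraries 1 to 4 and at most 0.794 in thymic set B. It was called without the filter (2.27 ± 0.42, limma adjusted p = 0.000507). Lum was at 2.89 FPKM in DN1eP library 1 and listed at 0 in the other 3, and was not called (0.45 ± 0.23, limma adjusted p = 0.155). Postn, which encodes periostin, was also highest in DN1eP library 1 at 4.72 FPKM, against 0, 0.938 and 0 in libraries 2 to 4. Library 1 thus carried the higher Dcn, Lum, Postn and Bgn levels of the group. For genes at 20 to 100 FPKM, its deposited intervals reached a median of 6.23% of the value on either side. In libraries 2 to 4 they reached 18.8% to 23.7%. Depth in libraries 2 to 4 was estimated at 1000000 to 1770000 fragments, which limits their values near 0.

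Among thymic NKT cells, Timp2 and Csf1 were lower in stage 3 than in stage 1, a comparison added after the data were seen. Timp2 was at 9.89 to 16.8 FPKM in stage 1 and 5.68 to 8.22 in stage 3 of set B, and at 78.1 and 104 against 32.1 to 46.1 in set A (-1.07 ± 0.22 over both sets, limma adjusted p = 0.000386). Csf1 was at 1.64 to 6.25 FPKM against 0.571 to 0.922 in set B, and at 15 and 16.3 against 2.43 to 3.42 in set A (-1.80 ± 0.23, limma adjusted p = 8.11e-07). Stages 1 and 3 did not overlap in either set for these genes, with only 2 or 3 libraries of each stage in a set. The share of all tested genes without overlap was not counted. Within set A the differences were -1.21 for Timp2 and -2.12 for Csf1, and within set B -0.93 and -1.48, all called by limma. Of 30 tested members, 2 were lower and 0 higher, against 26.6% and 10.6% (37.2% in all) of tested genes. Without the filter the counts over all 44 members were the same, against 16.8% and 6.29% (23.1% in all). Igfbp7 was lower in stage 3 within set A (-1.55 ± 0.53, limma adjusted p = 0.0367) and not called within set B (-0.03 ± 0.48, limma adjusted p = 0.986).

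Some members that thymic NKT cells express differed between library sets, as most tested genes did. Within thymic NKT cells, 5 of 30 tested members were higher in set A (Timp2, 2.51 ± 0.17, Csf1, 1.69 ± 0.18, Igfbp7, Lamc1 and Tagln) and Vcam1 was lower (-0.53 ± 0.21, limma adjusted p = 0.0242), against 52.3% and 20.3% (72.5% in all) of tested genes. Of the 8 members that passed the filter without DN1eP-NKT, 5 were higher and 0 lower, against the same shares. Acta2, Axl and Fstl1 were the members of these 8 that were not called. The other 22 lie near 0 in most thymic libraries. Under quantile normalization Timp2 and Csf1 kept their calls among 4 higher and 2 lower members, while the median of all tested genes moved by -0.56 log2.

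Within DN1eP-NKT, the members differed between libraries far more than most genes. For each gene at a mean of 1 FPKM or more in libraries 2 to 4 and at 0.05 or more in library 1, the mean of libraries 2 to 4 was divided by library 1. Over 40 members the median ratio was 6.23, with quartiles of 4.10 and 9.06, and 31 (77.5%) were over 4. Over 10428 tested genes the median ratio was 1.14 and 2.56% were over 4. The 14 T cell genes had a median of 1.44, from 0.769 (Cd28) to 2.02 (Thy1), with 0 over 4. Against set A thymic cells 2 of those T cell genes were higher and 6 lower, against 13.5% and 9.11% of tested genes, with a median difference of -0.36 log2 units. With 1 library on one side there is no test of this ratio. DN1eP-NKT library 1 was also the deepest of the group, and the part of depth was not tested. Among the NKT-2 libraries of set A, library 1 was likewise the deepest. There the same ratio was 1.31 for Timp2, 1.24 for Csf1, 1.17 for Axl and 1.28 for Tagln. It was 1.71 for Lamc1, 1.19 for Igfbp7 and 15.2 for Acta2.

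The drop in library 1 was not equal across members. The lowest ratios were those of Csf1 (1.10), Lamc1 (1.2), Vcam1 (1.86), Timp2 (1.93) and Axl (2.19), 4 of which thymic NKT cells express as well. Other members with thymic expression had high ratios, 10.4 for Acta2, 9.05 for Igfbp7 and 7.88 for Tagln. The highest were Postn (20.8), Col3a1 (16.4), Col1a1 (16.2), Col4a2 (13.3) and Col6a3 (12.2). By role, the median ratio was 9.16 for contractile and caveolar genes, 9.10 for fibrillar collagens, 8.63 for collagen VI, 8.22 for glycoproteins, 7.49 for basement membrane, 4.80 for folding, crosslinking and turnover, 4.13 for Bgn, the 1 proteoglycan gene with a ratio, and 2.80 for signals, receptors and adhesion. Cxcl12, at 3.09, fell less in library 1 than Fn1, at 8.28, or Col1a1. The measured levels in library 1 thus differed from those in the other libraries in their proportions as well as in their sum. The part of depth in these proportions was not tested.

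Libraries 2 to 4 resembled each other. Across the 44 members, Pearson's r of log2(FPKM + 1) was 0.984 to 0.986 among libraries 2 to 4 and 0.823 to 0.871 between each of them and library 1. These values are across genes, which are not independent, and the members span a wide range of levels. The standard deviation of the log2 ratio over 40 members was 0.32 to 0.35 among libraries 2 to 4 and 0.91 to 1.09 with library 1. Library 3 stood at a median of 1.46 times library 2 and library 4 at 1.34 times.

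**Figure D4:**
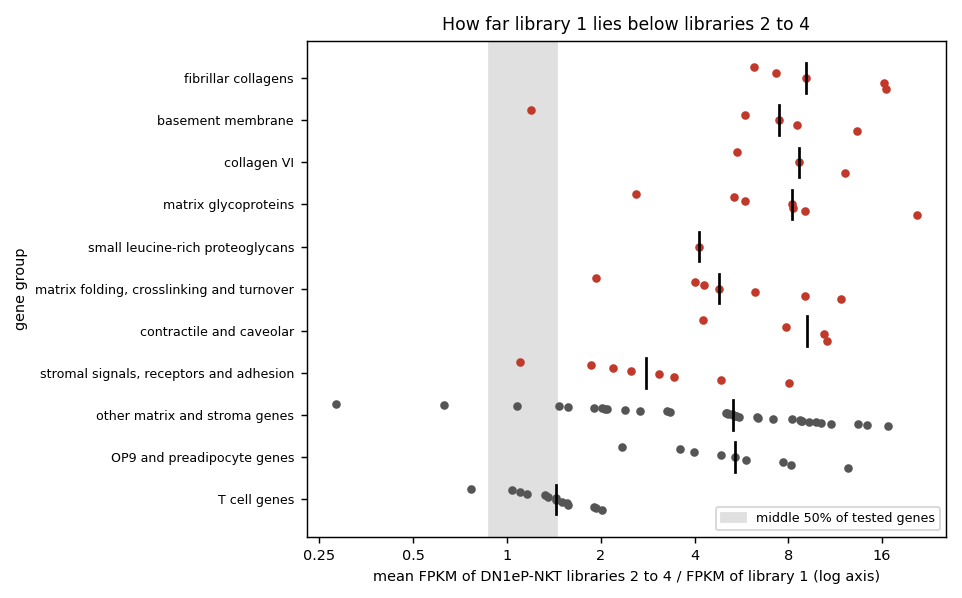
Mean FPKM of DN1eP-NKT libraries 2 to 4 divided by the FPKM of library 1 (log axis), for genes of each member role (red) and of 3 other lists (grey), with the median of each as a black bar; the shaded band holds the middle 50% of tested genes. Member roles have medians of 2.80 to 9.16, T cell genes 1.44.

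With library 1 as the only DN1eP-NKT library, a choice made after the data were seen, 18 of 30 members were higher than in set A thymic cells and Timp2 was lower, against 4.78% and 2.82% of tested genes. Without the filter 29 of 44 were higher and 1 lower, against 6.19% and 1.98% of genes. The lone library is there assumed to vary like the other groups. Acta2, Col5a1, Igfbp7, Lamc1, Mmp14, Postn, Serpinf1, Tagln and Vcam1 were no longer called, and Igfbp7 turned to -0.22. Without library 1 the same 28 members were called.

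A list of 60 other matrix and stroma genes was also mostly higher in DN1eP-NKT. Its most abundant gene there, Thy1 (381 to 828 FPKM), is also among the 14 T cell genes. Fitted without the filter, 39 of 59 were higher than in set A thymic cells and 3 lower, against 11.7% and 6.03% of genes, with a median difference of 0.69 log2 units against 0 over all genes. With the filter 13 of 22 were higher and 3 lower, against 13.5% and 9.11%, but 12 of those 22 passed it only through DN1eP-NKT. The 6 largest were Pcolce, which enhances procollagen processing (3.68 ± 0.32), the matricellular gene Cyr61 (3.33 ± 0.34), Islr (2.84 ± 0.28), the proteoglycan gene Ogn (2.75 ± 0.27), the collagen lysyl hydroxylase gene Plod2 (2.66 ± 0.20) and the mesenchymal transcription factor gene Prrx1 (2.25 ± 0.24). Pcolce was at 2.30, 13.7, 16.4 and 30.8 FPKM in libraries 1 to 4. Fbln1 (-1.50) and Plod1 (-0.57) were among those lower. The ratio of libraries 2 to 4 to library 1 had a median of 5.33 over 35 of these genes, with 22 over 4, but Lama5 was higher in library 1 (4.57 FPKM against 1.34 in library 2), with a ratio of 0.282.

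Genes of the OP9/Dll-1 layer and of preadipocytes, a fate open to OP9 cells, followed the members in part. Dll1, the Notch ligand gene added to this line, was at 0.647, 6.94, 8.78 and 8.49 FPKM in DN1eP-NKT, at most 0.0459 in thymic libraries of set A and listed at 0 in DN1eP. Fabp4, a fatty acid binding protein gene, was at 3.25, 15.1, 18.5 and 13.9 FPKM and Lpl, lipoprotein lipase, at 1.13, 4.09, 6.31 and 7.91. Dll1 had the largest ratio of libraries 2 to 4 to library 1 of this list, and the 9 genes of this list with a ratio had a median of 5.39. Without the filter 6 of 11 genes fitted were higher than in set A thymic cells and 1 lower, against 11.7% and 6.03% of genes. With it 4 of 6 were higher (Fabp4, 3.25 ± 0.33, Lpl, Angpt1 and Vegfa) and Cebpb was lower, against 13.5% and 9.11%, and 3 of those 6 passed only through DN1eP-NKT. In uncultured DN1eP, 5 of the 6 were higher than in set B thymic cells and 0 lower, against 20.8% and 14.4% of tested genes. Beyond the library set difference, 2 were higher and 2 lower in DN1eP-NKT, against 15% and 16.6%. The summed level of the 12 was 10.3 to 57.9 FPKM in DN1eP-NKT and 5.85 to 36.8 in set A thymic cells, so the sums overlapped. Cebpb carried the overlap. Without it the sums were 7.89 to 52.3 FPKM in DN1eP-NKT and 1.36 to 4.31 in set A thymic cells. Leaving it out was a choice made after the values were seen. In DN1eP the same sum was 1.01, 12.6, 13.9 and 9.85 FPKM in libraries 1 to 4. DN1eP libraries 2 to 4 were thus above DN1eP-NKT library 1. Plin1, a marker of mature adipocytes, is listed at 0 in every DN1eP-NKT library. The part of RNA from OP9 cells in the members' levels was not tested.

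Markers of other cell types were mostly low in DN1eP-NKT. Of 10 endothelial genes, 6 are listed at 0 in all DN1eP-NKT libraries, Cdh5 among them. Pecam1, which thymic NKT cells also express, was at 9.87, 8.20, 13.6 and 13.8 FPKM in libraries 1 to 4 against 6.30 to 55.6 in thymic set A and was lower (-1.0 ± 0.32, limma adjusted p = 0.0219). Of 10 thymic epithelial genes, 6 are listed at 0, including Krt5 and Foxn1, and Epcam was highest at 0.409 to 4.23 FPKM. Of 12 macrophage genes, 7 are listed at 0, Lyz2 among them, Csf1r reached 0.0167 FPKM and Cd68 ranged from 0 to 4.06.

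Summed levels in DN1eP-NKT and set A thymic cells were 9.18 to 16.1 and 6.30 to 55.6 FPKM for endothelial genes, 1.08 to 4.71 and 1.48 to 5.83 for thymic epithelial genes, and 0.286 to 4.17 and 0.654 to 2.58 for macrophage genes. Dendritic cell genes (Cd74, H2-Aa and Xcr1 highest) summed to 16.2 to 31.4 FPKM against 1.77 to 35.7, so all 4 of these sums overlapped.

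Other markers were higher in DN1eP-NKT. Itgb3, an integrin chain of platelets that these thymic NKT cells also express, was at 179 to 233 FPKM against 10.2 to 106 (2.28 ± 0.21), while Pf4 and 4 others of the 8 megakaryocyte and platelet genes are listed at 0. Cd22 was at 15.5 to 23.0 FPKM against 0 to 1.63 (3.88 ± 0.20) and made up most of the B cell sum of 17.1 to 26.6 FPKM, while Pax5 is listed at 0. Ebf1, a B cell and stromal transcription factor gene, was at 0.271, 1.98, 1.98 and 2.23 FPKM in libraries 1 to 4 (1.28 ± 0.28). Hba-a1, an alpha globin gene, was at 14.1, 4.99, 0 and 8.34 FPKM (2.16 ± 0.71, limma adjusted p = 0.033). Mast cell and basophil genes (Mcpt8, Cpa3 and Cma1) summed to 0 to 26.2 FPKM against 0 to 0.676, highest in library 1. The ratio of libraries 2 to 4 to library 1 was 1.01 for Itgb3, 1.37 for Cd22 and 0.315 for Hba-a1, against 7.62 for Ebf1. The part of cells with these markers in the members' levels was not tested.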

How the data were processed

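RNA-seq of 26 mouse thymocyte libraries was used as the authors' deposited FPKM per gene on mm9, made with TopHat2 2.0.6 and Cufflinks 2.1.1 per the submitters' processing notes. No counts were used, so depth was estimated from the steps between low values. The deposited confidence intervals reach 5.53% to 23.7% of the value on either side for genes at 20 to 100 FPKM. Groups came from the labels and library sets from the FPKM values. One limma fit (3.58.1, R 4.3.3, trend and robust) of log2(FPKM + 1) over 8 combinations of group and set gave 6 comparisons, for genes reaching 1 FPKM in 4 or more libraries, with Benjamini-Hochberg adjustment over all genes tested at 0.05. It was tested on simulated data. Alternatives were another pseudocount, filter or scaling, array weights, a replicate block, stage references and left-out libraries. Values are printed for the highest members of each role, those called lower anywhere or higher in DN1eP, up to 6 other matrix genes and up to 3 genes of each other cell type; others named were chosen after their values were seen. The members and lists were chosen with earlier results of these data known.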

Additional observations from a re-analysis of the deposited data

Results flagged for a closer look

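In 3 of 70 groups of values examined, 1 library lay far from the others by Dixon's criterion, which chance meets in about 1 group in 20. Tagln, the smooth muscle gene for transgelin, was at 2.65 FPKM in DN1eP library 3, with the nearest library at 0.743. Pdgfra was at 0.898 FPKM in DN1eP-NKT library 1, with the nearest library at 2.93. The summed FPKM of the 44 members was 56.6 in DN1eP library 1, with the nearest library at 29.1.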

How the results depend on the processing

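A call counted as kept if it held in every setting that tested the member. It was kept by 18 of 28 members called against set A thymic cells and 21 of 29 against DN1eP. Beyond the set difference 19 of 25 kept it, and between stages 2 of 2. There were 42, 39, 38 and 39 settings, and a member removed by a stricter filter could not lose its call there. With a filter of 5 FPKM fewer members were tested, and 6, 8, 6 and 2 were called against set A thymic cells, against DN1eP, beyond the set difference and between sets. With DN1eP-NKT library 1 alone, 887 genes were called against set A thymic cells and 1687 beyond the set difference, 4 members between stages, and Igfbp7 turned to -0.22 (set A) and -0.095 (DN1eP) and Mmp14 to -0.017 (beyond the set difference). Calls between DN1eP and set B thymic cells rose from 3 members to 5 with a pseudocount of 0.1 and 7 with quantile normalization, and fell to 1 when libraries 6 of NKT-2 and 5 of NKT-3 were left out. Between stages, members called rose from 2 to 5 with a pseudocount of 0.1, to 4 with only the compared libraries and to 4 without library 1 of DN1eP and DN1eP-NKT. The cause was not tested. Leaving out single libraries gave 28 to 28, 29 to 30, 24 to 27, 1 to 4, 5 to 7 and 2 to 4 members in the 6 comparisons, in the order set A, DN1eP, beyond the set, set B, sets and stages.

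The share of calls that were higher moved with upper-quartile and quantile scaling from 59.7% to 56.9% and 48.2% (set A), 68.1% to 58.1% and 47.5% (DN1eP), 59% to 42.9% and 47.6% (set B), 72% to 55.8% and 48% (sets) and 28.6% to 42.7% and 46.8% (stages).

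Same-numbered DN1eP-NKT and NKT-2 libraries correlated at 0.431, -0.003, 0.074 and 0.135 for numbers 1 to 4. Number 1 stood apart, because DN1eP-NKT library 1 was at -0.269, -0.068 and -0.14 with NKT-2 libraries 2 to 4. The cause was not tested. Differently numbered pairs reached 0.22, above the same-numbered values of numbers 2 to 4. These weak values did not show pairing by those numbers and cannot exclude it. With DN1eP the same-numbered values were 0.161, 0, 0.021 and 0.016, and differently numbered pairs reached 0.108. With a replicate block 28, 29 and 22 members were called in the first 3 comparisons and 1 between DN1eP and set B, with 2287 genes beyond the set difference and 2223 between DN1eP and set B. An estimated depth of 2710000 fragments or fewer in 13 libraries limits values near 0.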
